A study of Mus musculus with 10 samples.

Results

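Cytosolic ribosomal protein transcripts were described in isolated glomeruli, the filtering units of the kidney, of wildtype DBA/2J mice, which the labels mark as susceptible to diabetic kidney disease. Members were the table rows whose symbol begins with Rpl or Rps followed by a digit, and the rows Rplp0, Rplp1, Rplp2 and Rpsa. The 10 rows of S6 kinases (Rps6k) and 1 row with -ps in its symbol were left out. This gave 80 of 12934 rows, 47 named for the large and 33 for the small subunit. Rps19bp1 met the rule by its symbol but encodes a binding partner of a ribosomal protein. Rps27l, Rpl7l1, Rpl22l1, Rpl36al and Rps4l are named as copies of other ribosomal proteins. Rps27, Rpl39l, Rpl3l and Rpl10l had no row of that symbol in the values used here and are in none of the counts or sums.

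Total RNA was sequenced in 10 libraries. The diabetic Esm-1 mice (n = 3) were injected hydrodynamically at 7 weeks of age with a plasmid expressing mouse Esm-1, a proteoglycan secreted by endothelial cells, together with the Sleeping Beauty transposase. The diabetic saline mice (n = 4) and the non-diabetic saline mice (n = 3) were injected with saline at that age. Both diabetic groups then received low-dose streptozotocin, a toxin of pancreatic beta cells, from 8 weeks of age and later a 60% high-fat diet for 5 weeks. The non-diabetic mice received vehicle and, as far as the labels say, no high-fat diet. All mice were killed at 17 weeks. Diabetes was therefore compared together with diet, and Esm-1 together with plasmid and transposase against saline. The labels give no non-diabetic Esm-1 group and do not say that each library is 1 animal, so the p-values measure the spread between these samples. The 3 comparisons share libraries and are not independent of each other.

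A ribosome joins ribosomal RNAs and a set of ribosomal proteins, most of them needed in equal numbers, into a small subunit that decodes the mRNA and a large subunit that joins amino acids. Ribosomal protein mRNAs are known for a run of pyrimidines at their very start, the terminal oligopyrimidine (TOP) element, through which the mTOR pathway controls their translation as a group. That control acts on translation, and sequencing of whole RNA reads mRNA levels only.

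The starts of 8 members that the results name and that had a matched RefSeq promoter (GRCm38.p6) with such a run are shown as examples of the element. Rps21 and Rps24 each also had a promoter without such a run. Each line covers 10 bases before and 20 bases from the annotated start, on the strand of the gene, and capitals mark the pyrimidine run.
Rps2, chr17:24720053-24720082 (+): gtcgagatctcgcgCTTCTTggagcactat
Rpl13a, chr7:45128726-45128755 (-): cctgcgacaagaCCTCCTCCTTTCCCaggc
Rpl14, chr9:120571507-120571536 (+): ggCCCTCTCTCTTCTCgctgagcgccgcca
Rps24, chr14:24490668-24490697 (+): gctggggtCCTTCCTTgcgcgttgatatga
Rps21, chr2:180257369-180257398 (+): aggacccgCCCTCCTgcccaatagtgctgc
Rpl35, chr2:39005112-39005141 (-): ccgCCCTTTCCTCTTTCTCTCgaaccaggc
Rplp2, chr7:141447641-141447670 (+): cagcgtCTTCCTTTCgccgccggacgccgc
Rps6, chr4:86857348-86857377 (-): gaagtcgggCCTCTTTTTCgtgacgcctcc
The run began between -8 and 5 bases from the annotated start in these 8 genes, and its length varied between 6 bases in Rps2 and 18 bases in Rpl35.

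RefSeq promoters were matched for 60 of the 80 members. The run looked for had at least 6 pyrimidines, read from a C within 10 bases of the annotated start. A run that began farther upstream was thus counted from an inner C, as in Rpl7a. It was held by 32 of these 60 members (53.3%), 23.6% of the 6244 other tested genes with a promoter and 21.9% of 27025 genes. A gene was counted if any of its promoters held the letters, and the 60 members had 71 promoters. The letters CGGAAG, the core bound by many ETS factors, were searched on both strands of the whole 300-base window. They were held by 41 members (68.3%), 34.99% of the tested genes and 18.8% of all genes, and 21 members held both. TATAAA in the 50 bases before the start was held by 1 member (1.67%), 2.00% of the tested genes and 3.15% of all genes. These matches describe letters only, and annotated starts may lie a few bases from the used ones. The 250 bases before the start of Rps6, whose product is the substrate that S6 kinases phosphorylate, are shown as an example. They held 3 CGGAAG matches, in capitals and as CTTCCG where the other strand holds it. Rps21 and Rpsa also held 3 matches before the start, and Rps18 held 4.
Rps6, chr4:86857368-86857617 (-): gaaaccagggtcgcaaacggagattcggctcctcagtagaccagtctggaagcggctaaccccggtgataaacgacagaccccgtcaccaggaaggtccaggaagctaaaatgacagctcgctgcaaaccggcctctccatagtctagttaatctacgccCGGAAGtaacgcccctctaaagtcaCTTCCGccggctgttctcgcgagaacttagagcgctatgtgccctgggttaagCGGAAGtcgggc

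The libraries held 3931712 to 11300629 reads, of which Rn45s (ribosomal RNA precursor), Lars2 and Mir6236 took 91.1% to 92.8%. That left 338549 to 962321 reads for all other genes, and 3436 to 9305 for the members. Of the 80 members, 76 passed the filter of a normalized count of at least 10 in at least 3 libraries (8239 genes passed in all), 44 of the large and 32 of the small subunit. Their mean normalized count ran from 11.5 to 378 with a median of 64.6, against a median of 30.1 over all tested genes. The podocyte markers had rows for 10 of 10 genes, the endothelial markers for 10 of 10 and the mesangial markers for 7 of 7. Tubule markers were present too, with rows for 8 of 8 genes of the distal nephron and 8 of 8 of the proximal tubule. Having a row therefore does not tell glomeruli from tubule. The libraries numbered 16 in the diabetic saline and 30 in the non-diabetic saline group carry numbers under 100 in their titles, unlike the other 8, and are the shallowest of their groups. They are replicate 4 of the diabetic saline and replicate 3 of the non-diabetic saline group, and no label calls them a batch.

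Levels of the members were first set against each other per kilobase of coding sequence, over all 10 libraries, for the 79 members with a coding sequence in the reference. The median member had a mean normalized count of 125 per kilobase. Rpl41, which encodes the shortest ribosomal protein, stood highest at 1685 per coding kilobase, and Rps14 followed at 834. Rps16, Rpl37a, Rpl13a and Rps2 came next at 369.9, 337, 331 and 264 per kilobase. At the other end were Rpl34 at 2.97, Rpl29 at 12.9, Rpl22l1 at 18.9 and Rps19bp1 at 26.7 per kilobase. Rpl41 and Rpl34, both of the large subunit, were thus 567-fold apart on this scale. Rpl34, a core member of the large subunit, had only 0 to 3 reads in any library and 11 in all. The order at the top and these gaps depend on the length used: per kilobase of the whole transcript, a measure added after the data were seen, Rps14 stood highest at 633, Rpl41 followed at 289 and Rpl34 was at 2.17, which put Rpl41 and Rpl34 133-fold apart.

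Many ribosomal protein genes have near-identical processed copies in the genome, and reads that fit several places can be lost or shared in counting. Of the 79 matched members, 77 shared at least 1 stretch of 50 bases with a transcript of another gene. The share of 50-base windows found in no other gene's transcripts had a median of 42.6%, from 4.91% in Rpl35 to 100% in Rps19bp1. The level per kilobase and that share had a Spearman rho of 0.28 over the 79 genes (0.25 with windows of 100 bases), a description across genes that share the libraries. The 50 members with under 50% of unique windows had a median of 116 per kilobase, and the 29 others one of 140.2. The sources used here do not say how such reads were counted, so the levels of single members are uncertain. The 4 members with the fewest unique windows were Rpl35 (4.91%), Rpl5 (6.16%), Rps10 (7.57%) and Rpl10 (7.87%).

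The summed normalized count of the 80 members was 5838, 5841 and 6056 in the diabetic Esm-1 libraries, 5765, 5997, 6603 and 6083 in the diabetic saline libraries, and 5761, 5683 and 5483 in the non-diabetic saline libraries. The diabetic Esm-1 libraries lay within the range of the diabetic saline libraries, and both diabetic groups lay above the non-diabetic saline libraries, the diabetic saline group by less than the spread within any group. The means were 5911 ± 125 (SD, n = 3) with Esm-1, 6112 ± 354 (n = 4) in diabetic saline and 5642 ± 143.05 (n = 3) in non-diabetic saline glomeruli. The ratio of means was 1.083 for diabetic saline over non-diabetic saline, 0.967 for Esm-1 over diabetic saline and 1.05 for Esm-1 over non-diabetic saline. When libraries were instead scaled to a common total, in which ribosomal RNA dominates, the ranges overlapped: 5451 to 6585 with Esm-1, 5597 to 6407 in diabetic saline and 5384 to 6281 in non-diabetic saline glomeruli.

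As a share of the reads outside Rn45s, Lars2 and Mir6236, the members held 1.02 ± 0.0156% with Esm-1 (SD, n = 3), 1.04 ± 0.0638% in diabetic saline (n = 4) and 0.954 ± 0.0249% in non-diabetic saline glomeruli (n = 3). The balance of the subunits differed by less than the spread within groups. The summed large-subunit level was 1.30 ± 0.05, 1.282 ± 0.06 and 1.34 ± 0.07 times the small-subunit level in the diabetic Esm-1, diabetic saline and non-diabetic saline libraries. The summed podocyte markers averaged 2220 ± 488 with Esm-1, 3662 ± 665 in diabetic saline and 5224 ± 1202 in non-diabetic saline glomeruli, and those of the distal nephron 4517 ± 1366, 3551 ± 660.0 and 2419 ± 1027 in the same groups. In that order, the endothelial markers summed to 1159 ± 160.1, 1573 ± 259 and 2064 ± 217, the mesangial ones to 740.0 ± 84.8, 1068 ± 212 and 1145 ± 109, and the proximal tubule ones to 1021 ± 342, 657 ± 284 and 916 ± 633. Leukocyte markers had rows for 7 of 11 genes and summed to 35.5 ± 8.17, 35.2 ± 4.55 and 37.1 ± 14.0, and of 4 erythroid markers 1 had a row, with 0.399 ± 0.691, 5.04 ± 2.02 and 4.94 ± 2.199. Their part in the members' levels was not tested, and in bulk RNA fewer cells of a type and less RNA per cell cannot be told apart.

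**Figure D1:**
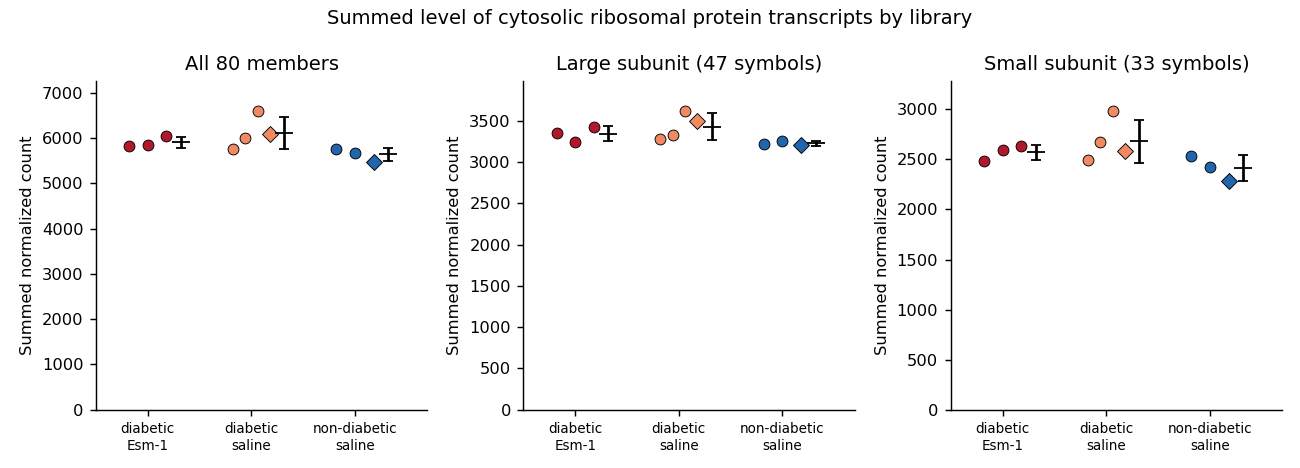
Summed normalized count of all 80 members, of the 47 large-subunit symbols and of the 33 small-subunit symbols in each library (points), with group mean ± SD (bars; n = 3, 4 and 3); diamonds are the libraries with title numbers under 100. The non-diabetic saline libraries reach 5761 in the sum of all members, and the diabetic saline libraries begin at 5765.

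Diabetes with high-fat diet was compared first, on log2(normalized count + 1), as diabetic saline minus non-diabetic saline. No ribosomal protein transcript passed an adjusted p of 0.05 with limma, edgeR or DESeq2, while 5.53% of all tested genes did with limma (456 of 8239). At an unadjusted p under 0.05 limma called 3 of 76 members, all higher, edgeR 4 and DESeq2 2; limma called 18.9% of all tested genes at that level. The median member differed by 0.11 on the log2 scale (1.077-fold), the median of all tested genes by -0.01, and 48 of 76 members lay above 0. With libraries scaled to a common total these medians were 0.024 and -0.09. Large- and small-subunit members had medians of 0.10 and 0.11. The differences ran from -0.61 for Rps28, a low member with 9.14 ± 3.03 normalized counts in diabetic saline and 14.1 ± 3.496 in non-diabetic saline glomeruli (SD, n = 4 and 3), to 0.65 for Rpl35.

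The 95% interval of the difference lay wholly within 2-fold for 73 of 76 members and within 1.5-fold for 38 of 76. Over all tested genes the share within 2-fold was 65.2%, and over tested genes with a mean of 30 to 400 it was 84.5%. A change of 2-fold or more was thus outside the interval of nearly all members, while for the other 38 members a change of 1.5-fold was not.

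Rps14, a protein of the small subunit's platform, had the lowest p. Its normalized count was 378, 346 and 406 in the diabetic Esm-1 libraries, 354, 408, 438 and 513 in the diabetic saline libraries and 300.3, 319 and 317 in the non-diabetic saline libraries. Every library of both diabetic groups lay above every non-diabetic library. The difference of diabetic saline was 0.44 on the log2 scale (SE 0.14, 95% interval 0.16 to 0.73) and missed the threshold with an adjusted p of 0.065 by limma. With a term for the title numbers under 100 it was 0.46 with a limma adjusted p of 0.0397, and without diabetic saline replicate 1 it was 0.53 with 0.0352. Without diabetic saline replicate 4, its highest library, it was 0.35 with 0.141, and over all 20 alternatives the adjusted p ran from 0.0352 to 0.272.

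Rpl35, which sits at the exit of the peptide tunnel, was named after its values were seen. It had 40, 41.6, 37.9 and 76.1 in diabetic saline glomeruli and 29.7, 24.5 and 34.9 in non-diabetic saline glomeruli. All 4 diabetic saline libraries were higher, and replicate 4, one of those with a title number under 100, stood far above the rest. The log2 difference was 0.65 (SE 0.24, limma adjusted p = 0.123), and 0.42 without that library. With the term for title numbers it was 0.71 with a limma adjusted p of 0.0384, within a range of 0.0384 to 0.346 over the alternatives. As given above, only 4.91% of the 50-base windows of Rpl35 were unique, so its level is uncertain.

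Rps15, which is needed for export of small-subunit precursors from the nucleus in human cells, had 115, 90.7, 93.9 and 84.98 in diabetic saline and 82.96, 86.2 and 56.1 in non-diabetic saline glomeruli, with overlap and a log2 difference of 0.37 (limma adjusted p = 0.298). In all, the libraries of 3 members (3.95%), Rps14 and Rpl35 among them, lay wholly higher in diabetic saline glomeruli and those of 0 members lay wholly lower, while the shares over all tested genes were 8.19% and 8.34%.

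**Figure D2:**
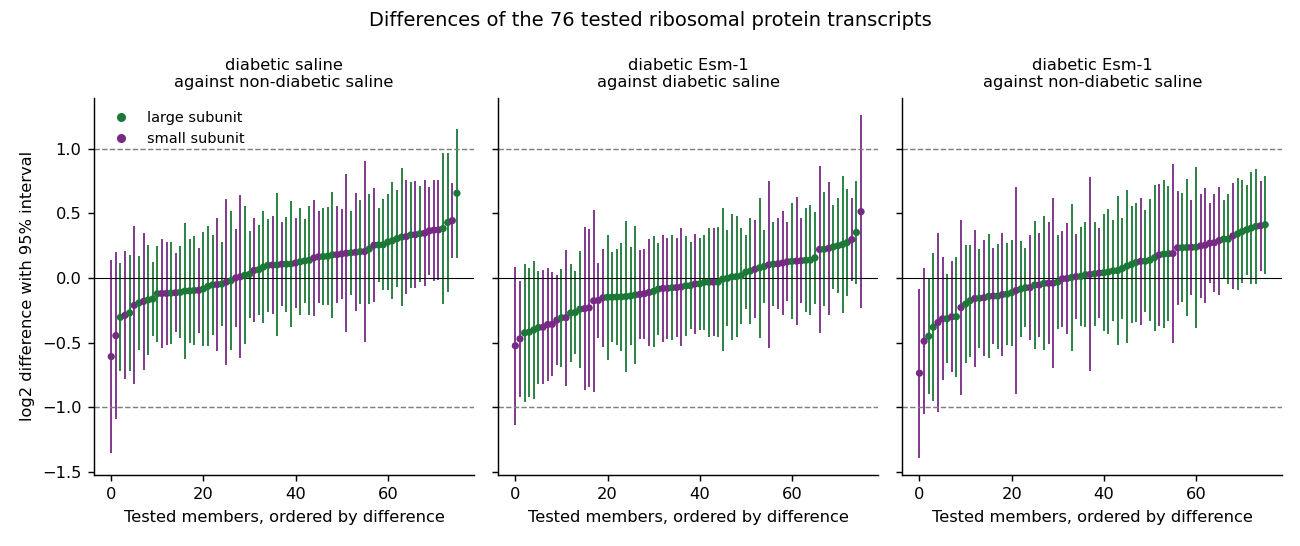
log2 difference (points) with its 95% interval (lines) for the 76 tested members, ordered within each comparison and coloured by subunit; dashed lines mark 2-fold. Members lie on both sides of 0 in each comparison, and the intervals of 73, 74 and 73 of 76 members stay between the dashed lines.

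The Esm-1 comparison was diabetic Esm-1 minus diabetic saline. No member passed the threshold with limma, edgeR or DESeq2, and neither did any other gene with limma (0.0% of 8239). At an unadjusted p under 0.05 limma called 1 member, Rps25, edgeR 1 and DESeq2 0, against 10.9% of all tested genes with limma. The median member differed by -0.06 on the log2 scale, the median of all tested genes by 0.00, and 29 of 76 members lay above 0. Large-subunit members had a median of -0.03 and small-subunit members one of -0.08. The range was -0.52 (Rps26) to 0.51 (Rps28). Of the 76 members, 74 had an interval within 2-fold and 43 within 1.5-fold; the share within 2-fold was 71.1% over all tested genes and 91.2% over those with a mean of 30 to 400.

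Rps25, a protein of the small subunit's head that is used in internal initiation on some viral RNAs, was named after its values were seen. It had 41.02, 39.1 and 34.7 in diabetic Esm-1 glomeruli, against 50.4, 53.7, 60.3 and 49.6 in diabetic saline glomeruli. The groups did not overlap, and the log2 difference was -0.47 (SE 0.21, limma adjusted p = 0.429). The non-diabetic saline libraries, at 55.7, 32.6 and 59.8, lay on both sides of the Esm-1 libraries. Rps2, at the channel where mRNA enters the small subunit, had 262, 267 and 283 with Esm-1 and 237, 234, 252 and 168 in diabetic saline glomeruli. Here all Esm-1 libraries were the higher ones, with a log2 difference of 0.30 (SE 0.16, limma adjusted p = 0.508).

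Among members with a mean of at least 50, the largest differences were those of Rpl14, Rps21, Rps24 and Rps4x. Rpl14 had 66.4, 55.3 and 53.9 with Esm-1 and 68.8, 74.97, 68.9 and 95.6 in diabetic saline glomeruli, without overlap, a log2 difference of -0.38 (limma adjusted p = 0.526). Rps21, Rps24 and Rps4x had log2 differences of -0.38, -0.36 and -0.36 with limma adjusted p of 0.54, 0.572 and 0.521, and their groups overlapped. The libraries of 3 members (Rps2, Rpl17 and Rpsa; 3.95%) lay wholly higher with Esm-1, against 3.73% of all tested genes. Those of 7 members lay wholly lower (Rpl19, Rps23, Rpl7a, Rpl35, Rps25, Rpl14 and Rpl39; 9.21%), against 5.47% of all tested genes. Over tested genes with a mean of 30 to 400 these shares were 3.41% wholly higher and 7.145% wholly lower. Rpl17, whose product lines the peptide tunnel, was chosen for naming with its values in view. It had 74.2, 62.9 and 70.6 with Esm-1 and 55.2, 41.6, 61.2 and 60.2 in diabetic saline glomeruli, a log2 difference of 0.35 (limma adjusted p = 0.525).

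**Figure D3:**
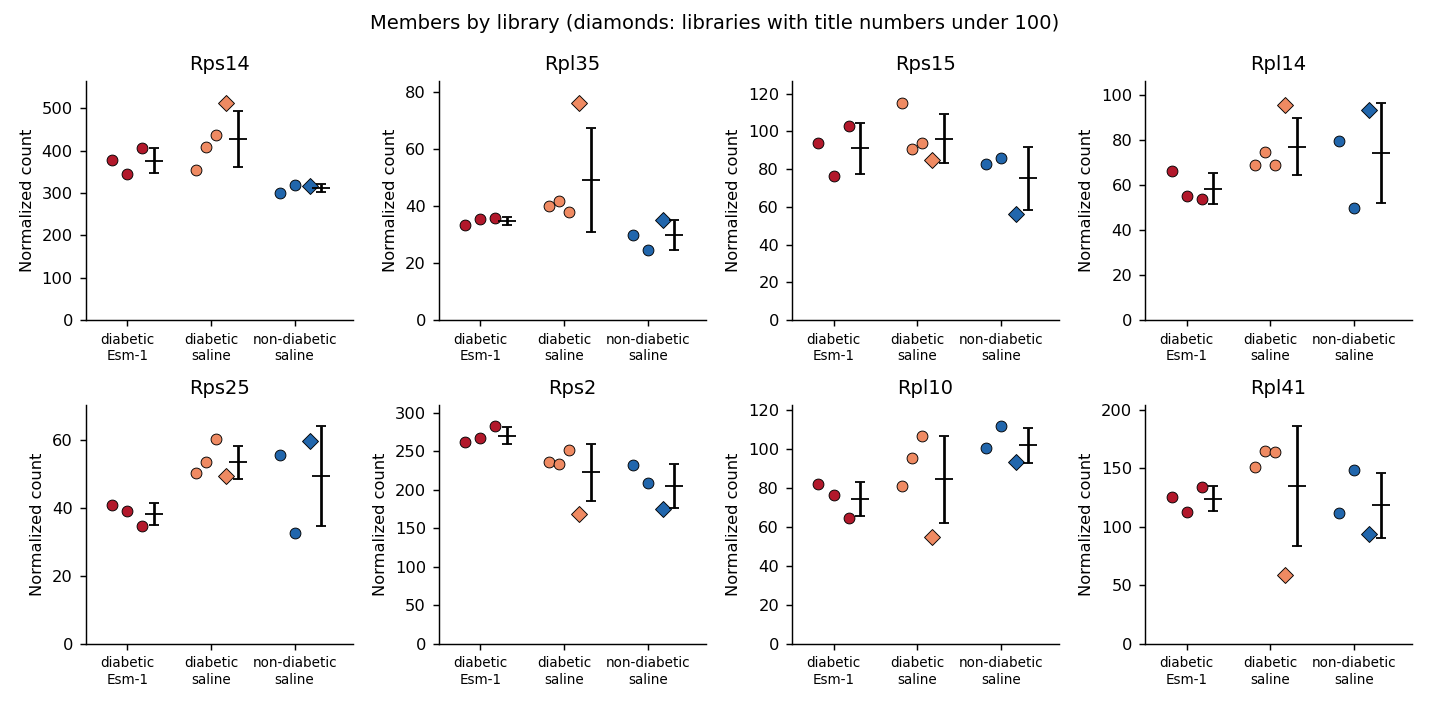
Normalized count of 8 members in each library (points) with group mean ± SD (bars; n = 3, 4 and 3); diamonds are the libraries with title numbers under 100. Rps14 is at 346 or more in all diabetic libraries and at 319 or less in the non-diabetic ones, and Rpl41 stands at 58.4 in diabetic saline replicate 4.

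Diabetic Esm-1 against non-diabetic saline glomeruli combines diabetes, diet and plasmid. It was the comparison with the most calls, 15.3% of all tested genes (1260 of 8239), and again 0 of 76 members passed with limma, edgeR or DESeq2. At an unadjusted p under 0.05 limma called 5 members (6.58%; 3 higher and 2 lower), edgeR 6 and DESeq2 2, while limma called 27.4% of all tested genes. The median member differed by 0.03 on the log2 scale and the median of all tested genes by 0.01, with 43 of 76 members above 0; with libraries scaled to a common total the members' median was -0.049 and that of all tested genes -0.07. Intervals lay within 2-fold for 73 members and within 1.5-fold for 29, and within 2-fold for 52.5% of all tested genes and 71.4% of those with a mean of 30 to 400.

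The 3 higher members were Rps2, Rpl37a and Rpl23. Rps2 had 262, 267 and 283 with Esm-1 and 233, 209 and 176 in non-diabetic saline glomeruli, a log2 difference of 0.40 (SE 0.17, limma adjusted p = 0.114). Rpl37a, a zinc-binding protein of the large subunit, had 100.3, 109.7 and 104 against 70.6, 76.2 and 89.7 (limma adjusted p = 0.143). Rpl23, a protein of the face between the subunits, was chosen for naming after its values were seen. It had 107, 129 and 126 against 104, 89.8 and 84.8 (limma adjusted p = 0.149). All Esm-1 libraries were above all non-diabetic libraries in these 3 genes.

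The 2 lower members were Rps26 and Rpl10. Rps26, at the channel where mRNA leaves the small subunit and also named after its values were seen, had 33.2, 43.9 and 17.96 with Esm-1 and 47.1, 48.1 and 56.1 in non-diabetic saline glomeruli, a log2 difference of -0.74 (SE 0.31, limma adjusted p = 0.127). Without diabetic Esm-1 replicate 3, its lowest library, that difference was -0.39. Rpl10, whose joining completes the large subunit in yeast, had 82.05, 76.3 and 64.6 against 100.3, 112 and 93.5, a log2 difference of -0.45 (SE 0.21, limma adjusted p = 0.178). With the term for title numbers under 100 it was -0.61 with a limma adjusted p of 0.0421, within a range of 0.0421 to 0.442 over the alternatives. Only 7.87% of the 50-base windows of Rpl10 were unique, so its level is uncertain too. Rpl27 had 112, 89.6 and 96.97 with Esm-1 and 81.1, 72.6 and 73.5 in non-diabetic saline glomeruli (limma adjusted p = 0.246). The libraries of 9 members (11.8%) lay wholly higher and those of 8 (10.53%) wholly lower, and the shares over all tested genes were 15.4% and 17.4%.

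Of the other members that were most abundant by coding length, Rps16 had 172, 168 and 163 in the diabetic Esm-1 libraries, 133, 155, 177 and 152 in the diabetic saline libraries and 172, 179 and 149.6 in the non-diabetic saline libraries, and the groups overlapped. Rpl13a, which in human monocytes also leaves the ribosome to silence some mRNAs, had 212, 221 and 214 in the diabetic Esm-1 libraries, 189.6, 204, 209 and 237 in the diabetic saline libraries and 168, 191 and 167 in the non-diabetic saline libraries. All Esm-1 libraries and 3 of 4 diabetic saline libraries were above the highest non-diabetic library, with limma adjusted p of 0.335 for diabetic saline and 0.194 for Esm-1 against non-diabetic saline glomeruli. Rpl41 had 125, 113 and 134 in the diabetic Esm-1 libraries, 151, 165, 164 and 58.4 in the diabetic saline libraries and 112, 149 and 93.5 in the non-diabetic saline libraries, and diabetic saline replicate 4 was its lowest library.

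The stalk of the large subunit, which recruits the translation factors, is built of Rplp0, Rplp1 and Rplp2. Rplp0 had 98.3, 109 and 87.4 in the diabetic Esm-1 libraries, 106, 117, 128 and 86.7 in the diabetic saline libraries and 95.96, 73.5 and 101 in the non-diabetic saline libraries. Rplp1 had 69.7, 75.3 and 56.3 in the diabetic Esm-1 libraries, 69.6, 72.2, 88.7 and 65.5 in the diabetic saline libraries and 74.9, 62.6 and 59.8 in the non-diabetic saline libraries. Rplp2 had 34.5, 32.4 and 39.5 in the diabetic Esm-1 libraries, 28.8, 57.4, 38.8 and 35.4 in the diabetic saline libraries and 32.2, 43.5 and 21.2 in the non-diabetic saline libraries. The groups overlapped in all 3 genes. Rpsa, a small-subunit protein also known as a laminin receptor precursor, had 111, 109 and 110.1 in the diabetic Esm-1 libraries, 107, 99.03, 107 and 88.5 in the diabetic saline libraries and 113, 118 and 92.2 in the non-diabetic saline libraries. Its Esm-1 libraries lay close together and above the diabetic saline libraries, at a limma adjusted p of 0.806.

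Rps6 had 55.3, 60.1 and 57.5 in the diabetic Esm-1 libraries, 51.99, 50.9, 88.7 and 51.3 in the diabetic saline libraries and 66.2, 65.3 and 61.1 in the non-diabetic saline libraries. Replicate 3 of diabetic saline was its highest library, and the other 3 of that group lay between 50.9 and 52.0. The Esm-1 libraries lay below the non-diabetic ones, with a log2 difference of -0.15 (limma adjusted p = 0.703). Rpl5 and Rpl11, which bind the p53 regulator Mdm2 when they are not in ribosomes, were measured in all libraries. Rpl5 had 76.2, 61.03 and 75.4 in the diabetic Esm-1 libraries, 81.6, 75.9, 71.5 and 84.98 in the diabetic saline libraries and 78.6, 75.3 and 71.05 in the non-diabetic saline libraries, with overlap between all groups and, as given above, few unique windows. Rpl11 had 87.3, 89.6 and 96.97 in the diabetic Esm-1 libraries, 97.6, 68.5, 93.02 and 106 in the diabetic saline libraries and 74.3, 77.1 and 62.3 in the non-diabetic saline libraries. Its Esm-1 libraries were above the non-diabetic libraries, with a log2 difference of 0.36 (SE 0.19, limma adjusted p = 0.234).

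Several members come in pairs of near copies. Rpl36a on chromosome X and Rpl36al on chromosome 12 differ in 39 of 318 coding bases (87.7% identical). Coding bases 115 to 174 of both are shown, as the stretch with 12 differing bases, which are in capitals.
Rpl36a: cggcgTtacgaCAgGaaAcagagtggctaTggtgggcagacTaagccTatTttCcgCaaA
Rpl36al: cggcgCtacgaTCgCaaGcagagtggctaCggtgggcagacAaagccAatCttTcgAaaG
Rpl36a had 35.8, 31.5 and 37.1 in the diabetic Esm-1 libraries, 33.6, 28.7, 31.9 and 70.8 in the diabetic saline libraries and 21.7, 28.1 and 41.1 in the non-diabetic saline libraries. Rpl36al had 28.7, 34.3 and 35.9 in the diabetic Esm-1 libraries, 26.4, 24.99, 43.9 and 38.9 in the diabetic saline libraries and 27.2, 29.02 and 29.9 in the non-diabetic saline libraries. Of their 50-base windows, 14.5% were unique to Rpl36a and 36.7% to Rpl36al, so how reads were split between them and further copies is uncertain. The library that stood out in Rpl36a, diabetic saline replicate 4, did not stand out in Rpl36al.

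In mice, Rpl22 is known to hold down its copy Rpl22l1. Rpl22 had 37.8, 29.6 and 29.9 in the diabetic Esm-1 libraries, 27.2, 25.9, 43.1 and 28.3 in the diabetic saline libraries and 35.9, 19.95 and 41.1 in the non-diabetic saline libraries. Rpl22l1 had 9.12, 10.5 and 7.18 in the diabetic Esm-1 libraries, 4.799, 6.48, 11.2 and 3.54 in the diabetic saline libraries and 6.81, 8.16 and 1.25 in the non-diabetic saline libraries, below the filter and at 1 to 14 reads per library, and its groups overlapped. Rps27l, a copy that p53 induces, had 18.2, 19.1 and 19.2 in the diabetic Esm-1 libraries, 16, 18.5, 23.3 and 35.4 in the diabetic saline libraries and 15.5, 16.3 and 28.7 in the non-diabetic saline libraries, with its highest values in the libraries with title numbers under 100. Rpl7 averaged 87.2 ± 4.64, 91.3 ± 10.9 and 89.2 ± 5.07 normalized counts, and its copy Rpl7l1 38.8 ± 4.74, 35.3 ± 4.600 and 37.6 ± 3.08, in the diabetic Esm-1, diabetic saline and non-diabetic saline groups (SD, n = 3, 4 and 3). Rpl39, a small protein of the peptide tunnel, had 15.6, 15.3 and 13.2 in the diabetic Esm-1 libraries, 20, 15.7, 22.4 and 21.2 in the diabetic saline libraries and 20.4, 19.04 and 18.7 in the non-diabetic saline libraries. All its Esm-1 libraries were the lowest ones, but the log2 difference from diabetic saline of -0.40 (SE 0.26) had a limma adjusted p of 0.606. Rpl3, near the catalytic centre of the large subunit, had 92.5, 84.9 and 96.97 in the diabetic Esm-1 libraries, 79.99, 102, 95.6 and 47.8 in the diabetic saline libraries and 91.01, 76.2 and 82.3 in the non-diabetic saline libraries, with the lowest value again in diabetic saline replicate 4.

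Rps4x on chromosome X averaged 45.7 ± 4.32 with Esm-1, 59.7 ± 12.4 in diabetic saline and 56.4 ± 1.496 in non-diabetic saline glomeruli (SD, n = 3, 4 and 3). Rps4l, Rpl34, Rpl29 and Rpl22l1 were the 4 members below the filter and were not tested. Rps4l had 2.605, 0 and 7.18 in the diabetic Esm-1 libraries, 7.199, 5.55, 2.58 and 1.77 in the diabetic saline libraries and 3.095, 7.26 and 3.74 in the non-diabetic saline libraries. Rpl34 had 0.651, 0.954 and 3.59 in the diabetic Esm-1 libraries, 1.600, 0, 0 and 1.77 in the diabetic saline libraries and 1.86, 0 and 0 in the non-diabetic saline libraries. Rpl29 had 5.86, 2.86 and 5.99 in the diabetic Esm-1 libraries, 8.799, 7.404, 7.75 and 3.54 in the diabetic saline libraries and 8.05, 5.44 and 6.23 in the non-diabetic saline libraries. A floor of 3 reads stands for 1.86 to 5.31 normalized counts in these libraries, so the levels of Rps4l and Rpl34 were at or near what the depth can show. Rps19bp1, which also regulates the deacetylase Sirt1, had 14.98, 7.63 and 10.8 in the diabetic Esm-1 libraries, 12, 11.1, 12.1 and 14.2 in the diabetic saline libraries and 10.5, 12.7 and 8.73 in the non-diabetic saline libraries, and its groups overlapped.

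The spread within groups was set against counting error. The ratio of the variance within groups to that expected from counting reads had a median of 1.69 over the 76 members (0.243 to 7.16) and was under 2 for 45. In the range of means from 30 to 400, the 70 members had a median ratio of 1.77 and the 3891 other genes one of 2.06. The within-group SD had medians of 0.22 and 0.26 on the log2 scale for these sets. Rpl41 had the highest ratio at 7.16, followed by Rps26 at 5.30, Rps14 at 4.50, Rps13 at 4.37 and Rps3 at 4.28. Deviations from the group means had a median pairwise correlation of 0.05 between members (2850 pairs), 0.00 between other genes of that range and 0.26 between subunits of the respiratory complexes, as a description over 10 libraries that all pairs share.

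Diabetic saline replicate 4 and non-diabetic saline replicate 3 departed from their groups partly in the same members. The deviations of these libraries from the mean of the other replicates had a Pearson r of 0.38 over the 76 members, 0.11 over the other genes with means of 30 to 400 and 0.08 over all tested genes, a description over genes that share the libraries, which are also the shallowest of their groups. Rpl36a was 1.15 higher in diabetic saline replicate 4 and 0.71 higher in non-diabetic saline replicate 3 on the log2 scale, and Rps27l 0.86 and 0.81 higher. Rps27a, made as a fusion with ubiquitin, was -0.83 and -1.20 from the others in these libraries. Rpl41 was -1.44 and Rpl3 -0.93 from the others in diabetic saline replicate 4, while Rpl27a was 0.98 and Rpl35a 0.94 above them. The part of the title numbers in these values cannot be told apart from depth.

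**Figure D4:**
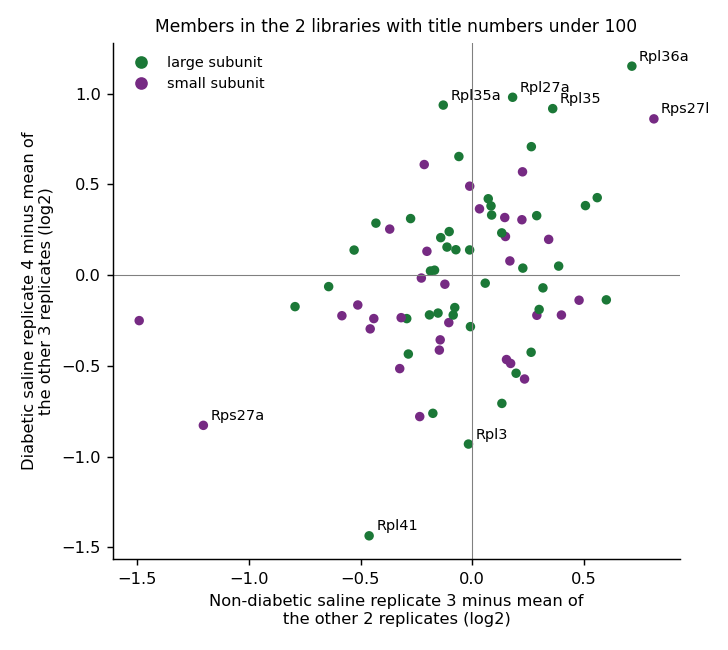
log2 deviation of the 76 tested members in non-diabetic saline replicate 3 (horizontal) and diabetic saline replicate 4 (vertical) from the mean of the other replicates of their group. Rpl36a and Rps27l lie high in both libraries and Rps27a low in both, while Rpl41 lies lowest in diabetic saline replicate 4.

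Other genes of the translation machinery were counted for comparison. Of 10 tested elongation factors and 33 initiation factors, 0 passed limma's threshold in any comparison. Over all tested genes that threshold was passed by 5.53% for diabetes, 0.0% for Esm-1 and 15.3% for Esm-1 against non-diabetic saline. Of 25 other transcripts known for TOP elements, 0 passed in the diabetes and Esm-1 comparisons and 3 fell in Esm-1 against non-diabetic saline glomeruli: Vim, Impdh2 and Nap1l1. Vim, the filament protein vimentin, averaged 493 ± 56.0 with Esm-1 and 1026 ± 211 in non-diabetic saline glomeruli (SD, n = 3 each; log2 difference -1.04, limma adjusted p = 0.000207). Vim is also abundant in podocytes, whose summed markers stood at 2220 ± 488 against 5224 ± 1202 in the same groups, and their part in the value was not tested. Of 59 tested ribosome biogenesis factors, Rpf1 rose in diabetic saline glomeruli (log2 difference 1.12, limma adjusted p = 0.0437) and Utp18 in Esm-1 against non-diabetic saline glomeruli (1.79, 0.0159). The medians of these 4 lists lay between -0.07 and 0.19 in the 3 comparisons.

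The mitochondrial ribosome has its own proteins, of which 41 of 77 were tested. Mrpl12 rose in Esm-1 against non-diabetic saline glomeruli (log2 difference 1.13, limma adjusted p = 0.0349), and 0 passed in the other comparisons. The list's median was 0.25 for diabetes, 0.21 for Esm-1 and 0.34 for Esm-1 against non-diabetic saline, beside 0.11, -0.06 and 0.03 for the cytosolic members. Of 72 tested subunits in a list named leading members of the respiratory complexes, 28 rose in diabetic saline against non-diabetic saline glomeruli. In diabetic Esm-1 against non-diabetic saline glomeruli 53 rose. Over all tested genes limma called 5.53% and 15.3% in these comparisons, in either direction. The list was chosen with earlier results of these data known, so its counts are no independent check of the fit. The distal nephron markers, which stood at 3551 ± 660.0 in diabetic saline and 2419 ± 1027 in non-diabetic saline glomeruli, differed in the same direction. The proximal tubule markers, at 657 ± 284 and 916 ± 633 in these groups, differed in the other direction. The part of either marker set was not tested. Cox5b, a subunit of cytochrome oxidase, averaged 159.7 ± 8.74 in diabetic saline and 73.3 ± 14.9 in non-diabetic saline glomeruli (SD, n = 4 and 3; limma adjusted p = 0.000185).

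**Figure D5:**
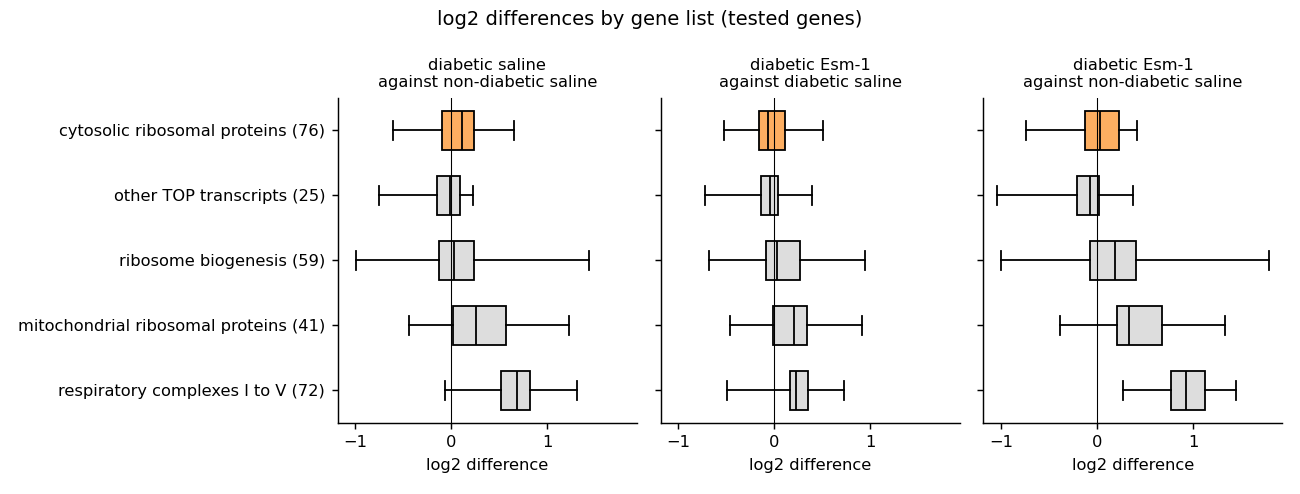
log2 differences of the tested genes of 5 lists in the 3 comparisons (box: quartiles and median, whiskers: lowest and highest gene; number of tested genes in brackets). The box of the cytosolic ribosomal proteins crosses 0 in each comparison, and that of the respiratory complexes does not, with medians of 0.68, 0.23 and 0.92.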

How the data were processed

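Glomerular RNA from 10 mouse libraries in 3 groups was analysed. The submitters' processing notes name Trimmomatic 0.36, STAR 2.5.3a, the mm9 build, R 4.0.2 and DESeq2 1.28.1. The deposited signal values are the authors' normalized counts. The sources used here give no counting program, annotation or strandedness. Dividing by the value of 1 read (0.62 to 1.77) gave whole reads for 100% of 129340 values within 0.001. Normalized counts entered 1 limma 3.58.1 fit with an intensity trend (R 4.3.3) as log2 of the normalized count plus 1, for 8239 genes with at least 10 in at least 3 libraries (4695 lay below). That scale understates the change of low genes. Tests were two-sided with Benjamini-Hochberg adjusted p under 0.05. edgeR 4.0.16 and DESeq2 1.42.0 ran on the recovered reads. The fit was also run on simulated data with planted changes of 2-fold or more and the same spread for all genes. That does not cover the smaller differences of the members. Reads outside Rn45s, Lars2 and Mir6236 numbered 338549 to 962321 per library, and floors in reads cover counting error only.

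Coding lengths and shared 50-base windows came from GENCODE M21 and promoters from RefSeq, both on GRCm38, which differs from the authors' build and served for names, lengths and sequences only. Replicate numbers follow the order of the records. The members and gene lists were chosen with earlier results of these data known. Members were named in each comparison by passing the threshold, or, where none did, as the 4 with the largest difference and a mean of at least 50. Also named were the 6 most abundant per coding length, stalk and entry-site proteins, near-copy pairs, Rps6, Rpl5, Rpl11, Rpl13a and Rps19bp1, and up to 4 genes past the threshold with the lowest p per other list and comparison, of which some are given only as counts. Rpl35, Rps25, Rps26, Rpl23 and Rpl17, and members given as extremes, were added after their values were seen. A few members are counted and tested but not reported here by name.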

Additional observations from a re-analysis of the deposited data

Results flagged for a closer look

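In the diabetic saline group of 4 libraries, 1 library stood far from the others in 8 of 85 series of values checked, and chance alone flags about 1 in 20. Replicate 4, whose title number is under 100, was the separate one in 4 of them: Rpl41 at a normalized count of 58.4 (the others 151 to 165), Rpl35a at 117 (55.2 to 64.8), Rpl35 at 76.1 (37.9 to 41.6) and Rpl36a at 70.8 (28.7 to 33.6). Replicate 3 was the separate one in Rps6 at 88.7 (the others 50.9 to 52.0), Rpl22 at 43.1 (25.9 to 28.3) and Rpl13 at 108 (74.4 to 79.6). Replicate 1 was the separate one in Rps23 at 75.99 (the others 89.6 to 91.6). Groups of 3 libraries were not checked in this way.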

How the results depend on the processing

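Counts of members past the threshold stayed at 0 in each comparison under all alternatives but those named here. A term for the title numbers under 100 gave 2 higher members for diabetes (Rps14 and Rpl35) and 1 lower for Esm-1 against non-diabetic saline glomeruli (Rpl10). Without diabetic saline replicate 1 the count of higher members for diabetes was 1 (Rps14), so leaving out 1 library gave 0 to 1 there and 0 to 0 for the other counts. Leaving out 1 library gave medians of 0.05 to 0.13 for diabetes, -0.09 to -0.03 for Esm-1 and -0.01 to 0.05 for Esm-1 against non-diabetic saline, and ratios of summed levels of 1.05 to 1.10, 0.949 to 0.994 and 1.03 to 1.06. Under a common total per library the median was 0.024 for diabetes and -0.049 for Esm-1 against non-diabetic saline, and the ratio of sums for that comparison 0.991; all genes' medians moved alike, and the members' median minus that of all genes stayed at 0.11 for diabetes. Single values were followed for the tested members chosen for naming, without those given only as extremes. Of these values, 2137 stayed on their side of the threshold and 4 passed it. Values that changed sign without passing it are among the 2137. Over all genes, limma without the trend called 224 genes for diabetes and 791 for Esm-1 against non-diabetic saline, against 456 and 1260, and leaving out 1 library called 288 to 475 and 623 to 1368. For Esm-1 DESeq2 called 30 genes and leaving out 1 library up to 52, against 0. The cause was not tested. No paired analysis was possible because replicate numbers follow the order of the records and pair no samples. Depth limits the members with the fewest reads, 4 of which lay below the filter. Per kilobase of transcript in place of coding sequence, chosen after seeing the data, Rps14 ranked above Rpl41.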
